A study of Mus musculus with 4 samples.

Results

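The region from Hoxa9 to Evx1 on mouse chromosome 6, with about 100 kb beyond Evx1, was examined for binding of CTCF, a zinc-finger protein found at chromatin domain borders and loop anchors. All regions overlapping a window of 195 kb, which opens inside Hoxa9 and closes about 100 kb beyond Evx1 on mm10, were taken from CTCF peak lists of 4 embryonic tissues. They numbered 24 of 121759 regions in all, after peaks of the 4 lists that shared at least 1 base were joined. These 24 regions held 57 peaks, of which 16 came from distal forelimb, 13 from proximal forelimb, 17 from posterior trunk and 11 from brain. The regions were chosen by position, in a window picked with the presence, fold and rank of its peaks in forelimb and brain already known. The tissue pattern of its regions is therefore given as a description without a test.

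CTCF chromatin immunoprecipitation and sequencing had been run on wild-type embryos of the B6CBAF1 background, with 1 library per tissue and the same CTCF antibody throughout. Distal and proximal forelimb were both of embryonic day E12.5, and the labels say that these libraries are re-analysed. Posterior trunk came from about 30 embryos at E10, cut to include tailbud, presomitic mesoderm and the youngest somites and to leave out most of the hindlimb bud. For brain, 6 telencephalons of E12.5 embryos were combined. With 1 library per tissue no difference has a replicate check, and the stage differs between posterior trunk and the other tissues. The forelimb libraries are those labelled as re-analysed, so forelimb against brain cannot be told apart from a difference between sets of libraries. Peak lists hold no expression values, so the tissue labels could not be checked against marker genes. In whole tissue, binding in fewer cells and weaker binding per cell cannot be told apart.

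Hox genes encode homeodomain transcription factors that give cells their position along the body and limb axes. In the Hoxa cluster the genes stand in the order of their use, with Hoxa9, Hoxa10, Hoxa11 and Hoxa13 towards the posterior end. Hoxa11 is known for patterning the middle segment of the limb and Hoxa13 for the hand and foot. Evx1, a homeobox gene beyond Hoxa13, acts in the primitive streak and in spinal interneurons. CTCF sites within Hox clusters are known to separate active from silent parts of the cluster, and pairs of CTCF sites can anchor chromatin loops.

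In the RefSeq annotation of GRCm38.p6, the assembly of mm10, the 4 Hoxa genes lie on the minus strand and Evx1 on the plus strand. Positions below are in kb from the start of Hoxa13 at 52260880, with Evx1 on the positive side. The annotation used gives gene spans and starts, not exons, so a site is placed within or between spans only. Folds are the authors' values, the ratio of the reads over the summit to the local background, and hold within their own list. A rank percentile is the place of a peak by the authors' p in its own list, with 100 for the strongest.

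Promoter sequence was at hand for 11 gene starts of the window, and summits fell inside 2 of these stretches, each running from 250 bases before to 50 bases after a start, against 9.60% of 32817 promoters genome-wide. Both are shown because no other summit of the window lay on sequence used here. The summit called in proximal forelimb only lies 178 bases upstream of the inner start of Hoxa10, and in the first stretch the capitals mark it with 5 bases on each side (minus strand, chr6:52235042-52235189, RefSeq, GRCm38.p6). The other summit was shared by proximal forelimb and posterior trunk, inside the span of Hoxa11. Its stretch is the promoter of the non-coding gene LOC115490410, whose start lies 128 bases from the summit, and not that of Hoxa11. Capitals there mark a match to CCNNNAGNGG, a shortened form of the CTCF core (plus strand, chr6:52243092-52243121, RefSeq, GRCm38.p6).
Hoxa10 inner start: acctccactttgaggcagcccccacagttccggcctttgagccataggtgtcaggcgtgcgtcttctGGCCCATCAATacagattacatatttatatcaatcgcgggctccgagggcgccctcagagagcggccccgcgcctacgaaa
Hoxa11 span: gaaCCACCAGGGGtcccaaaccattcattc

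The core CCNNNAGNNGGC was searched on both strands and was found in 8.61% of all promoters, in 29.4% of the 3149 with a CTCF summit inside and in 38.0% of the 1769 whose summit belonged to a region called in all 4 tissues. The promoter stretch at the inner start of Hoxa10 held no match to it. The promoter stretch of LOC115490410, within the span of Hoxa11, held a match at 52243016 to 52243027 on the minus strand, 78 bases from the nearest summit. The shorter CCNNNAGNGG, chosen after the sequence was seen, matched at 52243095 to 52243104, 1 base from the nearest summit, and occurred in 22.1% of all promoters and in 46.3% of those with a summit. The starts of Hoxa9, Hoxa11, Hoxa13 and Evx1 held no summit within their promoter stretches. At Hoxa11 a core match at 52245984 to 52245995 on the minus strand had no peak over it in any list.

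**Figure D1:**
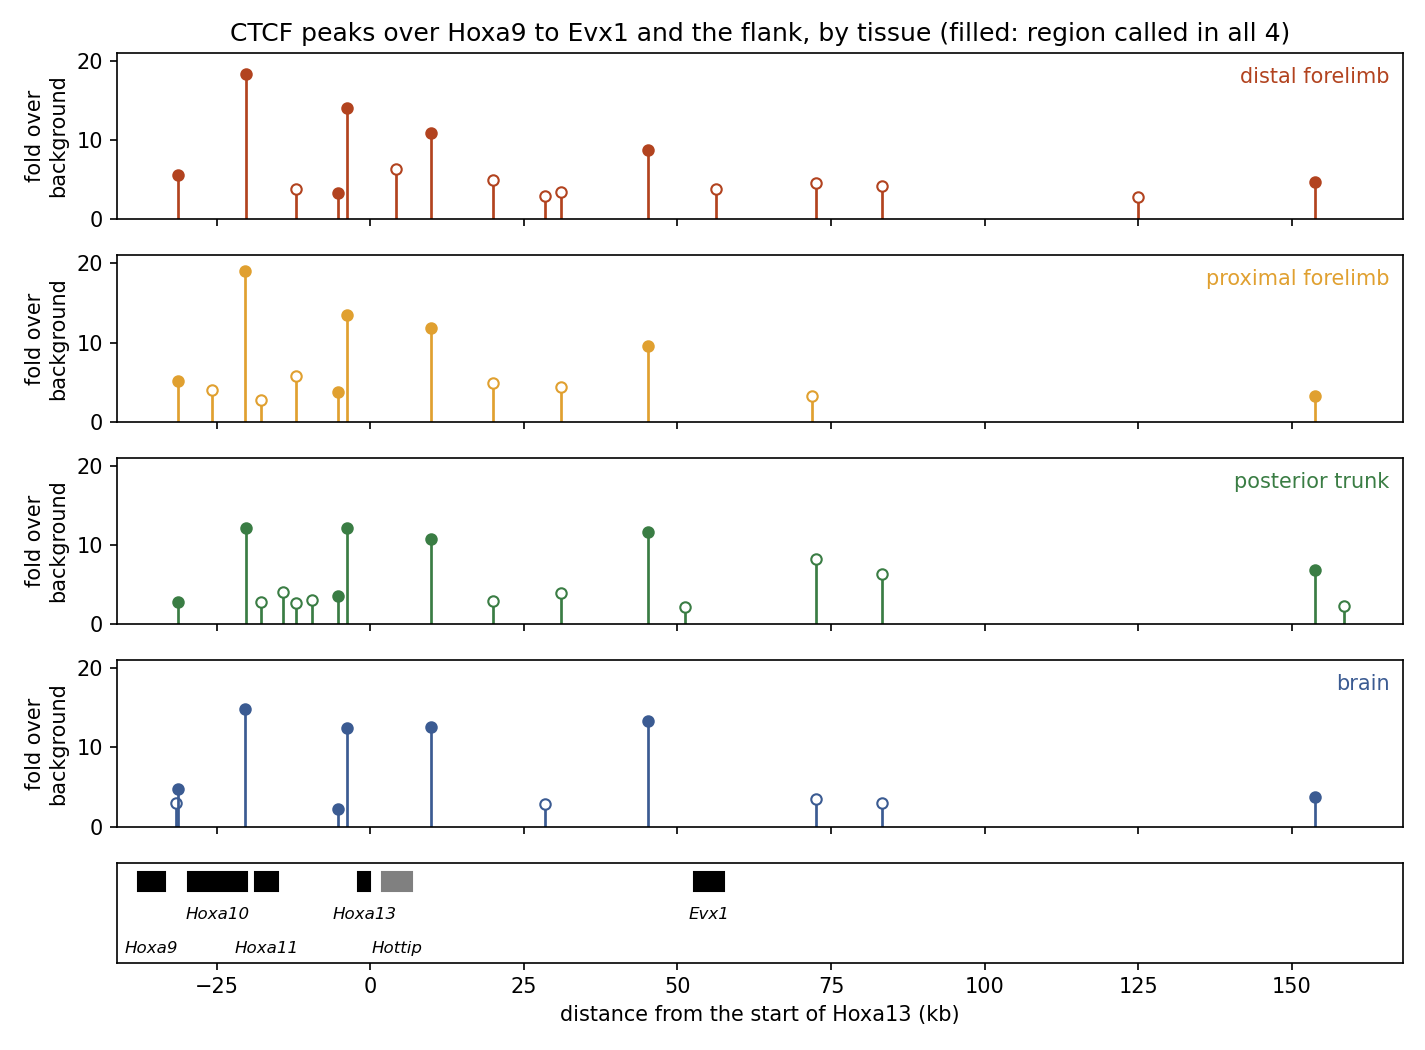
CTCF peaks of the window in the 4 tissues, plotted by distance of the summit from the start of Hoxa13 in kb against the authors' fold over local background. Filled circles are regions called in all 4 tissues, open circles the others, and the bars at the bottom are gene spans. The tallest peak lies in Hoxa10 in distal forelimb, proximal forelimb and brain, with a fold of 12.1 both there and at -3.75 kb in posterior trunk, and 3 regions between Hoxa11 and Evx1 that the other 3 tissues hold were not called in brain.

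CTCF was called in all 4 tissues at 7 of the 24 regions, and the strongest of them lay just inside Hoxa10. This share of 29.2% stands beside 42.4% of regions genome-wide. The 7 lay between Hoxa9 and Hoxa10, in Hoxa10, at a pair of sites between Hoxa11 and Hoxa13, at a pair of sites between Hoxa13 and Evx1, and at the far end of the flank. Neighbours among them were 1.53 to 35.3 kb apart from Hoxa9 to Evx1, and 109 kb separated the last of these from the one in the flank.

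The Hoxa10 site at 52240183 to 52240841 had its summit 306 bases inside the gene, whose product patterns the limb and the reproductive tract. Its fold was 18.4 in distal forelimb, 19.1 in proximal forelimb, 12.1 in posterior trunk and 14.9 in brain. The rank percentiles were 97.1, 98.2, 93.5 and 93.3 in the same order of tissues. It had the highest rank percentile of the window in each list, and its 4 summits lay within 11 bases of each other. A further strong site, just outside the window at 52221530 to 52222340 between Hoxa7 and Hoxa9, had percentiles of 97.9, 98.6, 95.9 and 98.6. Beyond the other end, the nearest region at 52447466 to 52447910 was called in posterior trunk only, with a fold of 4.58.

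Hoxa13, the gene of the hand and foot, had strong shared sites on both of its sides. At -3.75 kb, 52256882 to 52257424 had 143 reads over the summit in distal forelimb, 137 in proximal forelimb, 290 in posterior trunk and 198 in brain. At 9.83 kb, beyond the non-coding gene Hottip, 52270277 to 52271153 had 117, 132, 338 and 248 reads. The order of the tissues differed between them. Percentiles at the first site were 80.4 in distal forelimb, 79.4 in proximal forelimb, 87.8 in posterior trunk and 78.8 in brain, and at the second 72.5, 76.7, 90.3 and 85.0.

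Towards Evx1, the shared site at 45.2 kb, 52305827 to 52306366, ranked lower in both forelimb lists than in the other lists. It lay 7.44 kb before the start of Evx1. Its fold was 8.70 in distal forelimb, 9.52 in proximal forelimb, 11.6 in posterior trunk and 13.4 in brain. Percentiles were 59.5, 62.6, 79.9 and 80.0 in these lists of unequal length. Ranked only among regions called in all 4 tissues, the site was at 49.4, 53.9, 58.4 and 71.4 in the same order. The reads over its summit numbered 70 and 75 in the forelimb parts, 220 in posterior trunk and 200 in brain.

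The other 3 shared regions were weaker. Next to the microRNA gene Mir196b, between Hoxa9 and Hoxa10, 52229433 to 52229773 had percentiles of 39.9 in distal forelimb, 36.2 in proximal forelimb, 25 in posterior trunk and 39.3 in brain. At -5.28 kb, 52255476 to 52255836 was at 24.4, 30.4, 47.5 and 8.0, and in brain its −log10 q was 3.45. In the flank, 52414517 to 52414924 was at 32.8, 9.55, 61.1 and 31.6. Summits of these 3 regions spread over 38, 69 and 77 bases between tissues, while those of the 4 stronger ones spread over 6 to 11 bases. Over all 51657 shared regions the median spread was 19 bases, and it was 31 bases where no tissue ranked the region above percentile 50 of the shared set.

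**Figure D2:**
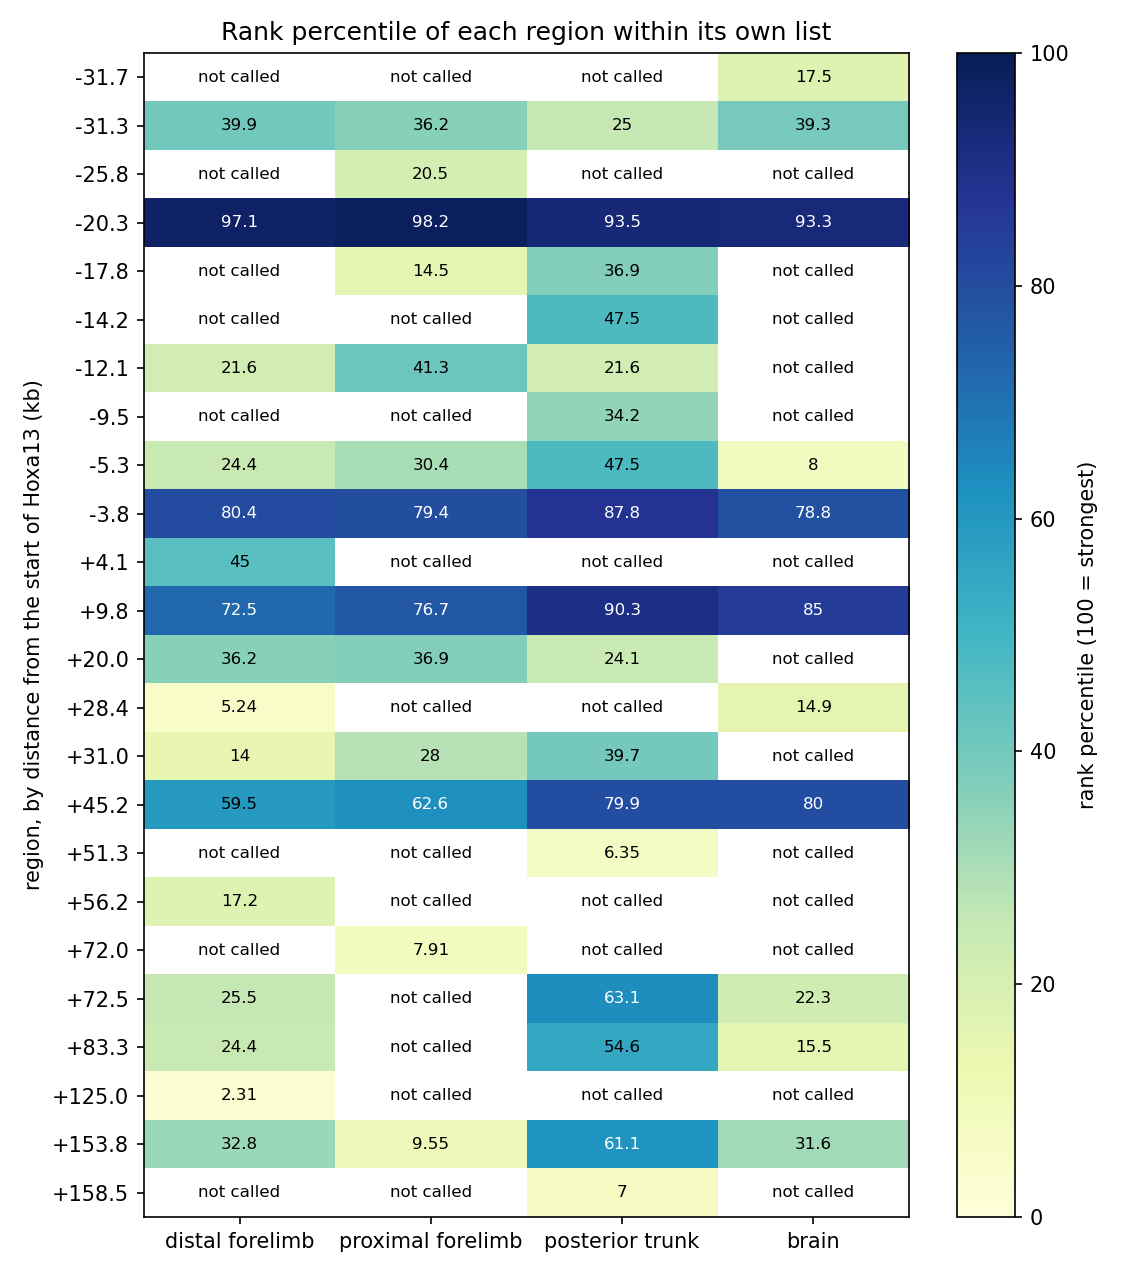
Rank percentile of the 24 regions within the peak list of each tissue, with 100 for the strongest peak. Rows are regions ordered along the chromosome by distance from the start of Hoxa13 in kb, columns are tissues, and white cells were not called. Percentiles of at least 59.5 in every tissue occur at 4 of the rows.

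Since lists of unequal length give unequal percentiles, the 51657 regions called in every tissue were also ranked among themselves in each list. In this common set the sign of the forelimb minus brain difference changed along the locus. At the Hoxa10 site distal forelimb was at 96.4 and proximal forelimb at 97.7, against 90.3 in brain. Of the 5165 shared regions within 5 points of this brain rank, 96.0% and 98.0% had a distal and a proximal minus brain difference at or below that of the Hoxa10 site. At 45.2 kb the values were 49.4 and 53.9 in the forelimb parts, 58.4 in posterior trunk and 71.4 in brain. Here 1.18% and 2.79% of 5165 regions had a difference at or below that of the site. These places describe the libraries and are no test.

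The 4 shared regions from Hoxa9 up to Hoxa13 were above brain in both forelimb parts, and both between Hoxa13 and Evx1 were below it. Distal minus brain was 9.11, 6.09, 9.97 and 5.92 points at the first 4 sites, -12.8 at 9.83 kb and -22.0 at 45.2 kb. Proximal minus brain was 6.1, 7.4, 16.3, 4.9, -7.2 and -17.5 points at the same sites. At -5.28 kb brain stood at percentile 0.5 of the common set, which left little room for a negative difference. Of regions of like brain rank, 66.7% and 80.0% had a distal and a proximal difference at or below that of this site. At the Mir196b site, at 16.5 in brain, the shares were 74.6% and 65.6%. The sign of the rank difference at these weak sites is therefore not read as a forelimb pattern. Reads above background in brain were 0.806 times those in distal forelimb at -5.28 kb and 1.29 times at the Mir196b site. The median was 1.79 over 18406 regions called in both with 15 to 40 reads in distal forelimb. Of these regions, 2.09% and 19.4% were at or below the 2 values. With 1 library per tissue these ratios were not tested. At the Hoxa10 site and at -3.75 kb brain was at 90.3 and 69.6, so either sign was open. Of regions of like brain rank, 81.2% and 76.5% were at or below the distal and the proximal difference at -3.75 kb. At 9.83 kb these shares were 4.39% and 16.7%. In the flank the distal minus brain difference was 8.3 points and the proximal minus brain difference -7.3 points. Most of these differences lay within the central 95% of shared regions of like brain rank, the exceptions being proximal forelimb at the Hoxa10 site and distal forelimb at 45.2 kb. By the full lists, in place of the common set, 3 regions rather than 4 had both forelimb parts above brain. Differences of at least 10 points in both forelimb parts were found at 0 of 7 regions upwards, against 7.05% genome-wide, and at 1 of 7 downwards, against 6.56%.

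**Figure D3:**
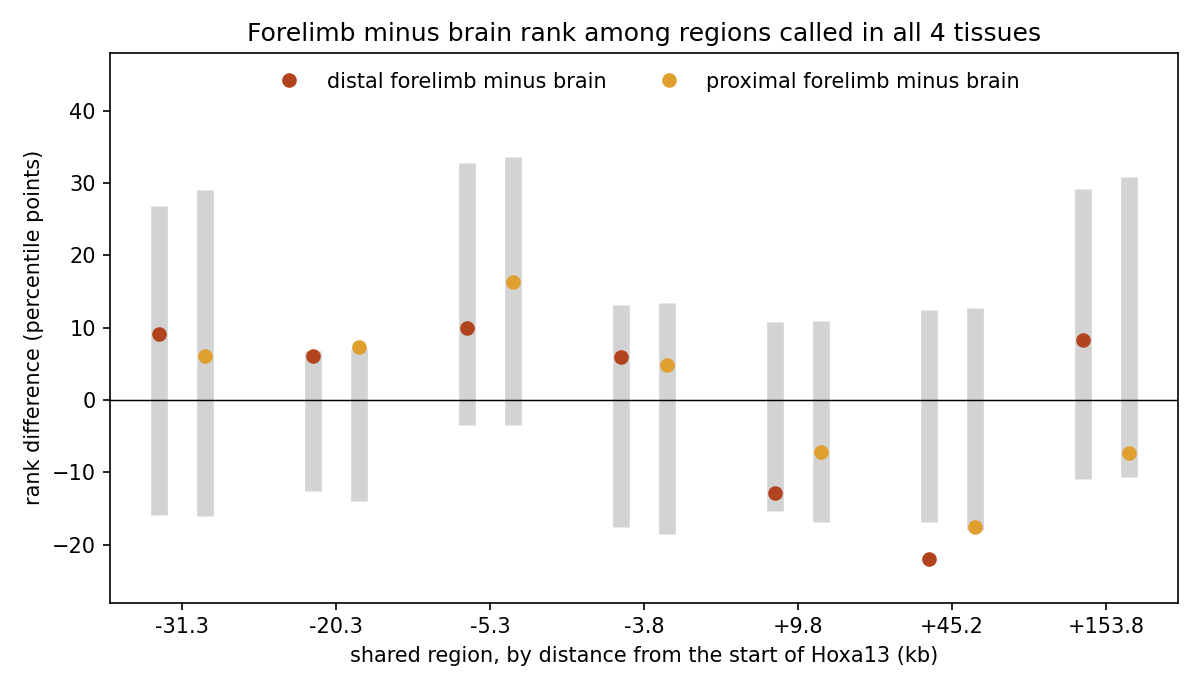
Difference in rank, in percentile points, between each forelimb part and brain at the 7 regions called in all 4 tissues, ranked among all such regions and ordered by distance from the start of Hoxa13 in kb. Grey bars span the central 95% of shared regions with a similar brain rank. At 45.2 kb distal forelimb, at -22.0, lies below its bar, and at the Hoxa10 site proximal forelimb, at 7.4, lies just above its bar.

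Both forelimb parts had CTCF at 3 regions that were not called in brain, and posterior trunk had all 3. They were 3 of 24 regions, against 1.80% genome-wide for both forelimb parts without brain and 1.47% for both forelimb parts and posterior trunk without brain. Among regions called in both forelimb parts and posterior trunk, 3.35% lacked a brain call genome-wide, and 18.6% did so at percentiles 20 to 50 of the trunk list. In the window these shares were 3 of 10 and 3 of 5. The band was set after the 3 values were seen. The trunk calls on which these shares rest depended on the length of that list, the longest of the 4: none of the 3 regions had one in lists of equal length, and the region at -12.1 kb had none after depth scaling.

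The first of the 3 lay at -12.1 kb in Hoxa11os, a non-coding gene antisense to Hoxa11, 2.97 kb from the start of Hoxa11. At 52248625 to 52248916 the reads over the summit numbered 26 in distal forelimb (95% exact Poisson interval 17.0 to 38.1), 39 in proximal forelimb (27.7 to 53.3) and 47 in posterior trunk (34.5 to 62.5). Local backgrounds were 6.16, 5.98 and 17.2 reads. Folds were 3.77, 5.73 and 2.63. By rank in its own list the site stood highest in proximal forelimb, at percentile 41.3, and was at 21.6 in both distal forelimb and posterior trunk. These intervals cover counting error only, and those of both forelimb parts overlap.

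The second, at 19.96 kb between Hoxa13 and Evx1, was nearly equal in the forelimb parts. At 52280688 to 52281276 there were 35 reads in distal forelimb (24.4 to 48.7), 38 in proximal forelimb (26.9 to 52.2) and 42 in posterior trunk (30.3 to 56.8). Folds were 4.99, 4.84 and 2.95, and summits lay within 37 bases. Percentiles were 36.2, 36.9 and 24.1.

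The third, at 30.98 kb, had its highest percentile in posterior trunk, the longest of the lists. At 52291704 to 52292043 there were 21 reads in distal forelimb (13 to 32.1), 29 in proximal forelimb (19.4 to 41.6) and 54 in posterior trunk (40.6 to 70.5). Folds were 3.47, 4.37 and 3.94, and percentiles 14.0, 28.0 and 39.7. Reads above background in posterior trunk were 2.62 times those in distal forelimb. The median was 3.07 over regions called in both with 15 to 40 reads in distal forelimb.

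Depth differed between the libraries. By the lowest background in each list, brain had 2.02 and posterior trunk 2.21 times the depth of distal forelimb, and proximal forelimb 1.08 times. If brain had held the forelimb signal at its own depth, 52.5 reads from distal and 72.6 from proximal forelimb would have lain over the summit at -12.1 kb. Between 23 and 30 would have passed the brain threshold, by the tissue that gave the background. The chance of a brain call was at least 0.984 at this site, 0.991 at 19.96 kb and 1.0 to 3 digits at 30.98 kb, over the 3 tissues it was computed from. These chances lean high, since each region was seen because it passed somewhere, and they assume equal efficiency of the libraries.

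**Figure D4:**
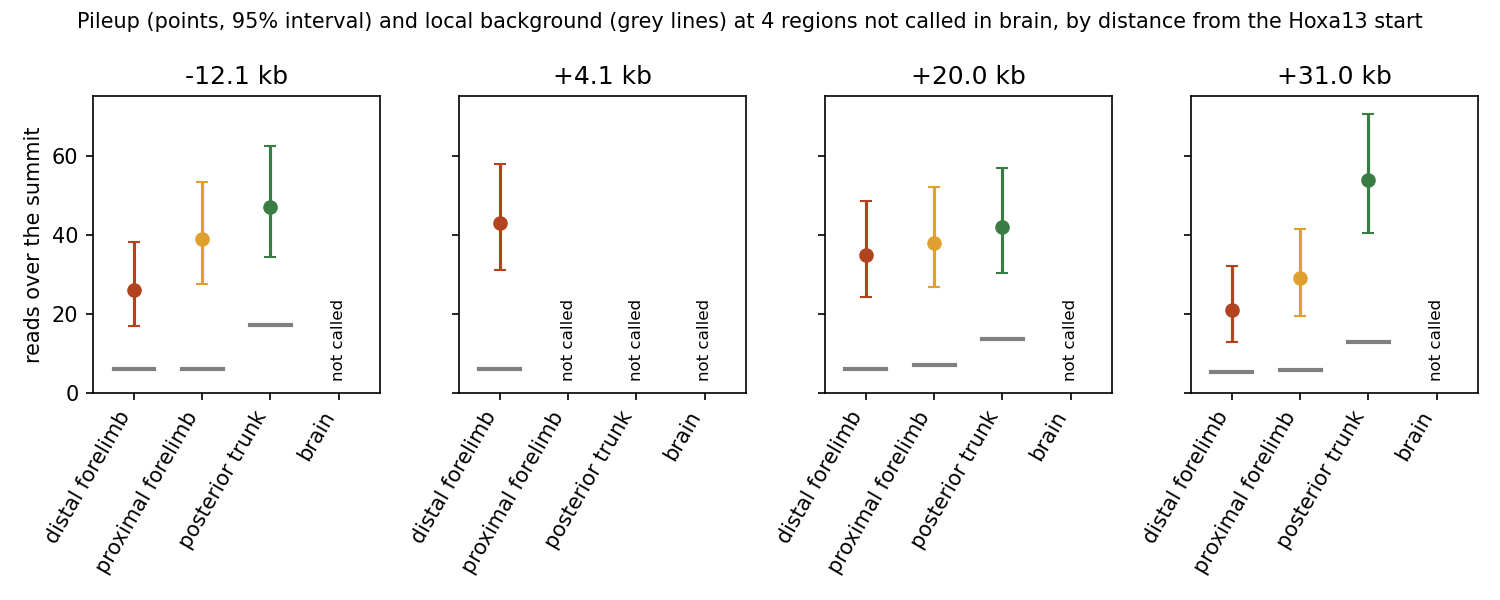
Reads over the summit in each tissue at the 3 regions called in both forelimb parts and not in brain, and at the region called in distal forelimb only (4.1 kb). Points are the recovered read numbers with 95% exact Poisson intervals, grey lines the local background, and panels give the distance from the start of Hoxa13. Only called peaks are shown, and each passed the authors' threshold against its local background, so every interval lies above that background.

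Signal in posterior trunk was low for its library at part of these sites. For regions with 15 to 40 reads in distal forelimb, the reads above background in posterior trunk were a median 3.07 times those in distal forelimb over 21648 regions called in both. This ratio was 1.5 at -12.1 kb and 0.988 at 19.96 kb, and 9.04% and 1.57% of the regions were at or below these values. The shared site beside Mir196b had 0.993, with 1.64% at or below. At 30.98 kb the ratio was 2.62, and at 3 sites of the Evx1 flank it was 4.77, 3.11 and 3.39, with 83.3%, 51.0% and 58.1% of regions at or below. The shared site at -5.28 kb, which lies between these low sites, had 2.69, with 40% at or below. Low trunk ratios were thus seen at 3 of the 5 such weak sites from Hoxa9 to 30.98 kb, and the 3 in the flank were above the median.

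A region in Hottip was called in distal forelimb only. Hottip is a non-coding gene next to Hoxa13, and its human counterpart is known to act on the posterior HOXA genes. At 52264852 to 52265129, with its summit 2.2 kb inside Hottip, there were 43 reads (31.1 to 57.9) over a background of 6.0, a fold of 6.29 and a percentile of 45. Regions called in distal forelimb only number 3784 genome-wide, or 3.11%, and 5 of them, this region included, were at least as high in the list. The same signal would have given 46.6 reads in proximal forelimb, 95 in posterior trunk and 86.8 in brain, where 16, 26 and 25 would have passed.

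The window had 2 other regions called in distal forelimb only, both weak. In Evx1, 3.62 kb from its start, 52317007 to 52317230 had 21 reads and a fold of 3.79. In the flank, 52385780 to 52385979 had 14 reads and a fold of 2.85, at percentile 2.31 and a −log10 q of 2.33, close to the lowest of the list at 1.3. The chance of a call in proximal forelimb at equal signal was 0.981 for the first and 0.747 for the second.

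Proximal forelimb had CTCF at 3 regions that distal forelimb lacked. The region at the inner start of Hoxa10, whose sequence is given above, had 24 reads, a fold of 3.98 and percentile 20.5, and was called in no other tissue. With the flank region given below, regions called in proximal forelimb only were 2 of 24, against 2.23% genome-wide. In the span of Hoxa11, 52242953 to 52243237 had 36 reads in proximal forelimb and 81 in posterior trunk, with summits 2 bases apart. Regions called in these tissues alone are 2.09% genome-wide, and this was the 1 such region of the 24. Its folds were low, at 2.72 and 2.77, over backgrounds of 12.6 and 28.6 reads. These backgrounds were 2.75 and 3.06 times the lowest of their lists, and the strong Hoxa10 site lies 2.11 kb away. The part of the background in these folds was not tested. In distal forelimb the chance of a call at equal signal was at least 0.960. The remaining region, 52332729 to 52332958 in the flank, had 19 reads and a fold of 3.22.

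In the flank beyond Evx1, 2 regions were called in distal forelimb, posterior trunk and brain and not in proximal forelimb. At 72.5 kb, 52333172 to 52333568 had a fold of 4.59 in distal forelimb, 8.20 in posterior trunk and 3.46 in brain. At 83.3 kb, 52344017 to 52344405 had 4.18, 6.36 and 3.00. By rank in its own list posterior trunk had both at percentiles 63.1 and 54.6, against 25.5 and 24.4 in distal forelimb and 22.3 and 15.5 in brain. The lists are of unequal length, and that of posterior trunk is the longest. Reads above background in posterior trunk were 4.77 and 3.11 times those in distal forelimb, with 83.3% and 51.0% of regions at or below. The chance of a proximal call, scaled by depth, was 0.997 and 0.996 at the level of distal forelimb and 0.874 and 0.778 at that of brain. Scaling by the median signal ratio (that of reads above background), chosen after seeing the data, gave 0.994 and 0.978 at the level of brain. The first lay 0.21 kb from the region called in proximal forelimb only. Regions missing from proximal forelimb alone are 2.91% genome-wide and were 2 of 24 here.

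Brain had 1 region that neither forelimb part had, 52229078 to 52229278 between Hoxa9 and Hoxa10, against 11.4% of regions genome-wide. No other region was called in brain only, a class of 5.92% genome-wide. It held 32 reads (21.9 to 45.2), a fold of 3.01 and percentile 17.5, and lay 0.15 kb from the shared site beside Mir196b. The chance of a call at equal signal, scaled by depth, was 0.797 in distal forelimb, 0.812 in proximal forelimb and 0.993 in posterior trunk. Scaled by the median signal ratio instead, it was 0.987 in distal and 0.985 in proximal forelimb. At 28.4 kb, 52289164 to 52289377 was called in distal forelimb with 17 reads and in brain with 32, with summits 6 bases apart. Their folds were 2.90 and 2.83. Regions called in these tissues alone are 0.269% genome-wide.

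Posterior trunk alone had 4 regions, or 16.7%, against 28.4% genome-wide. The highest fold was 4.01 at 52246520 to 52246791, 0.85 kb upstream of the start of Hoxa11, with 79 reads. The next region was 52251146 to 52251478 between Hoxa11 and Hoxa13, with a fold of 3.02, and 52419323 to 52419522 in the flank, with 2.27. The remaining region lay in Evx1os, a non-coding gene beside Evx1, at a fold of 2.22. The chance of a brain call at equal signal, scaled by depth, was 1.0 to 3 digits for the first 2 and 0.841 and 0.791 for the others. For these others it was 0.972 and 0.957 when scaled by the median signal ratio. Between the Hoxa10 site at -20.3 kb and the shared site at -5.28 kb there were 4 regions, each called in posterior trunk and none in brain, a stretch picked after its calls were seen. Over the whole window 8 of 24 regions, or 33.3%, were called in posterior trunk and not in brain, near the 33.9% genome-wide.

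The posterior Hoxa window was set beside the like window of the Hoxd cluster, from Evx2 to Hoxd9 with 100 kb beyond Evx2. The posterior Hoxa window covers 195 kb and the Hoxd window 147 kb, so the counts come from unequal lengths. Posterior Hoxa had 3 of 24 regions called in both forelimb parts and not in brain, against 0 of 18 at Hoxd. Regions called in all 4 tissues were 7 at posterior Hoxa, against 9 at Hoxd. Regions called in distal forelimb only numbered 3, against 0, those in proximal forelimb only 2, against 0, and those in posterior trunk only 4, against 5. Regions called in brain and in neither forelimb part numbered 1, against 3, and those in brain only 1, against 2. Of 18 posterior Hox and Evx genes of the 4 clusters, Hoxa11 was the only gene with a region called in both forelimb parts and not in brain within 5 kb of its span. These genes had 1 to 5 regions each within that distance, and such regions are 1.80% of all regions genome-wide. A single such region among them is not read as particular to Hoxa11. With 1 library per tissue these counts carry no test.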

How the data were processed

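Per the submitters' processing notes, MACS2 2.1.1.20160309, Bowtie2 2.3.5, cutadapt 1.16 and SAMtools 1.9 were used, with mm10 as the build. For the options and any input library, the sources used here give nothing. Each library has 1 peak list deposited by the authors, with 65841 rows for distal forelimb, 64892 for proximal forelimb, 110463 for posterior trunk and 75674 for brain. Each deposited row holds a fold (a ratio with a pseudocount of 1), a −log10 p-value, a −log10 q-value down to 1.30, a score that repeats the q, and a summit.

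Rows of 1 interval were merged at the strongest summit, and peaks of chromosomes 1 to 19, X and Y were joined when they shared at least 1 base. Fold and p gave back a whole pileup and its background for each peak, and the −log10 p they imply was off by 0.00031 or less. Background steps of 0.02 are those of reads extended to 200 bases and counted over 10 kb. Absolute depth is unknown. The joining and recovery were tested on simulated data. Computations used pandas 2.3.3, scipy 1.17.1 and numpy 2.4.6 under Python 3.11.15, and plots matplotlib 3.10.9.

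Every region of the window is accounted for. Values are given for regions called in all 4 tissues and for those in a forelimb part and not in brain. They are also given for those in brain and not in both forelimb parts. Not every fold, read number and percentile of these regions is printed. Of regions called in posterior trunk only, the 3 highest folds are named. The window and lists were chosen with earlier results of these data known.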

Additional observations from a re-analysis of the deposited data

Results flagged for a closer look

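The posterior trunk peak at 52280719 to 52281276, between Hoxa13 and Evx1, held a second summit that no comparison used, since each interval was represented by its strongest summit. It lay 242 bases from the main summit and had a fold of 2.62, with 37 reads over a background of 13.5. No control library was used here to set it against.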

How the results depend on the processing

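Regions called in all 4 tissues numbered 5 to 7 and those called in both forelimb parts and not in brain 3 or 4 under a stricter q, equal list lengths, scaled depth, an overlap of 50% of the shorter peak, matching by summits, and without the flank. The regions at -12.1, 19.96 and 30.98 kb kept their calls in distal and proximal forelimb under each of these. Their lack of a brain call could not change, since no setting adds a peak to the brain list. Their posterior trunk calls were lost in lists of equal length at all 3, and after depth scaling at -12.1 kb. Brain regions absent from both forelimb parts were 1, but 2 under the stricter q (−log10 q from 5 up) and 0 after depth scaling. Posterior trunk regions called there only were 4, but 2 under the stricter q, 1 in lists of equal length and 2 after depth scaling. The cause was not tested. Scaling by the median signal ratio, chosen after seeing the data, left 3 of 3 forelimb regions with a chance of a brain call of at least 0.95. The planned search for the CTCF core around every summit, with its other letters and window, was not run for want of sequence, apart from the 11 promoter stretches. No paired analysis was possible because there was 1 library for every tissue.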
